A study of Homo sapiens with 6 samples.

Results

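LRRC15, SPINK4 and SYNPO2L are 3 genes chosen by their measured log2 values, for a large rise in LCCTam, a tamoxifen-resistant breast cancer line, over SUM44, the line it was derived from. They are 3 of 11963 genes that could be named on the array, and each was read by 1 probe set, which is a set of short probes for a transcript. The probe sets were 213909_at for LRRC15, 207214_at for SPINK4 and 219804_at for SYNPO2L. LCCTam was sampled at passages 8, 9 and 10, which are replicates 1 to 3, and SUM44 at passages 74, 75 and 76, also replicates 1 to 3. SUM44 comes from an invasive lobular breast carcinoma, and the labels call it positive for the estrogen and progesterone receptors. Both lines grew in SFIH medium on a Ham's F12 base. LCCTam also received 4-hydroxytamoxifen, the active form of tamoxifen, at 500 nM, and SUM44 did not. The resistant line and the presence of the drug therefore cannot be told apart, and neither can the line and its passage number. The labels do not say whether LCCTam is 1 clone or whether the passages were separate cultures, and each p-value given here reflects only how much these arrays varied, which may be technical. In such bulk RNA, fewer cells of a type and less RNA per cell cannot be told apart.

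The genes are best known from other tissues. LRRC15 encodes a membrane protein whose outer part is made of leucine-rich repeats, a fold that binds other proteins. It is known as a marker of fibroblasts activated by TGF-beta around tumours, and some tumour cells carry it too. SPINK4 encodes a small secreted protein of the Kazal family, whose members block serine proteases, and it is known from the mucus-secreting goblet cells of the gut. SYNPO2L encodes an actin-associated protein related to synaptopodin that sits at the Z-disc, the anchoring plane of actin filaments in heart and skeletal muscle.

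The genes lie on 3 chromosomes, by RefSeq on GRCh38.p14. LRRC15 spans chr3:194355249-194369743 on the minus strand, SPINK4 chr9:33240167-33248567 on the plus strand and SYNPO2L chr10:73644886-73656029 on the minus strand. RefSeq lists 2 transcripts for LRRC15, 1 for SPINK4 and 2 for SYNPO2L. An antisense gene, SYNPO2L-AS1, overlaps SYNPO2L by 1991 bases, and no annotated gene overlaps the other members. The files give no probe positions, and the exon that each probe set reads is not known here.

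The start regions of the members are shown so that the letters of 3 genes chosen for the same change, on 3 chromosomes, can be set side by side. Each is the RefSeq window of 300 bases, from 250 before the gene's start to 50 after it, on the gene's own strand. Capitals mark matches on either strand to 7 motifs. These were the estrogen-related receptor core AAGGTCA, the estrogen response element, which is GGTCA and TGACC with 3 bases between, the AP-1 motif TGANTCA, the forkhead motif TGTTTAC, the GATA motif GATAAG, the TATA box TATAAA and the MEF2-type motif, which is CTA and TAG with 4 bases between. The windows are chr3:194369694-194369993 on the minus strand, chr9:33239917-33240216 on the plus strand and chr10:73655980-73656279 on the minus strand.
LRRC15: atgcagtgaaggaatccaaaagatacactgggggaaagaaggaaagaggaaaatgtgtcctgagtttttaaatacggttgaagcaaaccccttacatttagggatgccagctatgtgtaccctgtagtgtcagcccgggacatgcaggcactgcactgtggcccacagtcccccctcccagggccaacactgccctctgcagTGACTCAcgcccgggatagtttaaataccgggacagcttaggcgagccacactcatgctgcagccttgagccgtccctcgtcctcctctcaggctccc
SPINK4: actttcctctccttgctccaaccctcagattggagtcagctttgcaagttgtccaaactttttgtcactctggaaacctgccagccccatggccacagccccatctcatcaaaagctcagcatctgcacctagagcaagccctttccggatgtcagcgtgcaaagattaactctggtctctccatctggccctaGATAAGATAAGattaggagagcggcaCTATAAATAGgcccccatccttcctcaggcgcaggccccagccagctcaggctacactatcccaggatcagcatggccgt
SYNPO2L: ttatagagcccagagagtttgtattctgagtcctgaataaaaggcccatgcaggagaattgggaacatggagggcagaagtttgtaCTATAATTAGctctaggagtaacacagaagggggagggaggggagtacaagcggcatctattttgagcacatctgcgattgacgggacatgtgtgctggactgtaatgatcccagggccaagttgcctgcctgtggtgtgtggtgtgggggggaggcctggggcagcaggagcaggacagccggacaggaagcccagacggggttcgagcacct

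None of the motifs was in all 3 of the members' windows. LRRC15 held 1 AP-1 match, TGACTCA, from base -48 to -42 before the start. SPINK4 held 2 GATA matches that overlap by 1 base, from -56 to -51 and from -51 to -46, and a TATA box from -29 to -24 that lies inside a MEF2-type match from -30 to -21. SYNPO2L held a MEF2-type match, CTATAATTAG, from -164 to -155. The MEF2-type motif was thus in 2 of the members' windows. Among 27305 RefSeq windows of the same length, 2.83% held the MEF2-type motif, 7.76% the AP-1 motif, 6.36% the GATA motif and 12.0% the TATA box. The estrogen-related receptor core was in 0 of the members' windows and in 3.97% of all windows, the forkhead motif in 0 and in 3.41%, and the full estrogen response element in 0 and in 0.0659%. The E-box CANNTG, which is not capitalised, was in the same 2 windows, SPINK4 and SYNPO2L, and in 68.9% of all windows. The members' windows had a GC content of 54.7% for LRRC15, 53.0% for SPINK4 and 54.3% for SYNPO2L, against a median of 58.3% over all windows. A match is a string of letters and does not show binding.

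The values are log2 expression made by the authors with RMA, a method that corrects background, makes arrays alike and summarises each probe set. LCCTam replicate 3 (passage 10) stood apart in its control probe sets. The 3' probe set of its actin control exceeded the 5' one by 1.92, against 1.08 and 1.11 on the other LCCTam arrays and 0.90 to 1.15 on the SUM44 arrays. Results are also given without it where it changed them. Simple-epithelial markers were among the brightest probe sets of both lines. KRT18 averaged 13.18 ± 0.31 in LCCTam and 13.40 ± 0.07 in SUM44, KRT19 12.29 ± 0.35 and 12.39 ± 0.16, KRT8 12.16 ± 0.47 and 12.50 ± 0.13, and EPCAM 11.30 ± 0.13 in LCCTam and 11.60 ± 0.15 in SUM44 (SD, n = 3 each). The first 3 are keratins of simple epithelia and EPCAM is an epithelial adhesion molecule. The median percentile of the 18 luminal markers among all probe sets was 95.9 in LCCTam and 96.6 in SUM44, and the lowest was 67.9 in LCCTam (MUC1) and 76.3 in SUM44. ESR1, the estrogen receptor alpha gene, was bright in both lines but lower in LCCTam, at 11.08 ± 0.13 in LCCTam and 12.74 ± 0.23 in SUM44 (SD, n = 3 each).

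LRRC15 was among the brightest probe sets in LCCTam and of middling brightness in SUM44. Its log2 values were 11.57, 11.76 and 11.33 in LCCTam passages 8, 9 and 10, and 6.55, 6.62 and 7.24 in SUM44 passages 74, 75 and 76. All LCCTam values lay above all SUM44 values, with a gap of 4.09 between the lowest LCCTam and the highest SUM44 array. The means were 11.56 ± 0.22 in LCCTam and 6.80 ± 0.38 in SUM44 (SD, n = 3 each), a difference of 4.76 or 27.0-fold, which was the highest of the 11963 genes as read on these arrays. Since the gene was chosen for this difference, it is given as a description with no test. The probe set ranked 427 of 22215 by its mean in LCCTam and 8214 in SUM44, which are percentiles 98.1 and 63.0. Across single arrays the percentile was 97.9 to 98.3 in LCCTam and 59.4 to 69.0 in SUM44.

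SPINK4 followed closely. It was read at 10.16, 10.83 and 10.89 in LCCTam passages 8, 9 and 10, and at 6.05, 6.01 and 6.83 in SUM44 passages 74, 75 and 76. The lines did not overlap, with a gap of 3.33, and LCCTam passage 8 was the lowest of its line. The means were 10.63 ± 0.41 in LCCTam and 6.30 ± 0.46 in SUM44 (SD, n = 3 each), a difference of 4.33 or 20.1-fold, which ranked 3 among all genes. The probe set ranked 861 in LCCTam and 9880 in SUM44, percentiles 96.1 and 55.5.

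SYNPO2L started dimmer and reached a lower level. It was read at 8.04, 8.49 and 7.96 in LCCTam passages 8, 9 and 10, and at 5.13, 5.49 and 5.24 in SUM44 passages 74, 75 and 76. Again the lines did not overlap, with a gap of 2.47. The means were 8.17 ± 0.29 in LCCTam and 5.28 ± 0.18 in SUM44 (SD, n = 3 each), a difference of 2.88 or 7.36-fold, which ranked 8 among all genes. The probe set ranked 4210 in LCCTam and 13973 in SUM44, percentiles 81.1 and 37.1. Brightness also depends on each probe set's sequences, so the levels of the 3 genes do not order their transcript amounts.

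**Figure D1:**
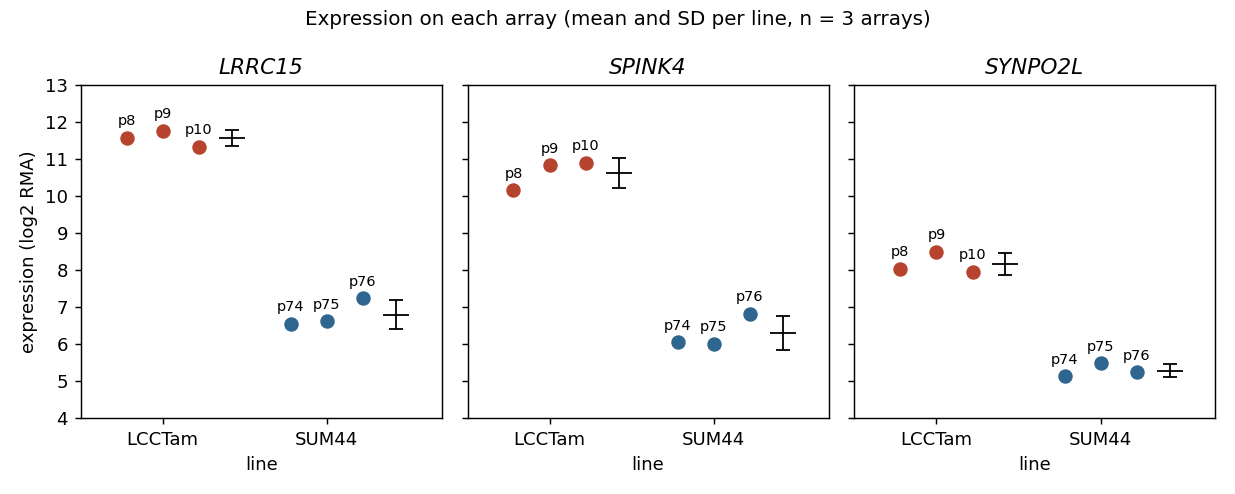
Log2 RMA expression of LRRC15, SPINK4 and SYNPO2L on each array, LCCTam in red and SUM44 in blue, with the passage above each point and the mean and SD of each line (n = 3) beside the points. The LCCTam values lie above the SUM44 values in all panels, with gaps of 4.09, 3.33 and 2.47.

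In 13.2% of all genes every LCCTam array lay above every SUM44 array, and in 16.6% every LCCTam array lay below. The 3 members are among the 13.2% by choice. Only 7 genes had a larger rise than SYNPO2L, 2 of them the other members. The remaining 5 were ADCY1 at 4.58, LRP4 at 3.71, SERPINA1 at 3.55, CPB1 at 3.53 and LAMA4 at 3.23. The median difference of all genes was 0.02. The order of the members' differences was LRRC15, SPINK4, SYNPO2L. LRRC15 and SPINK4 are neighbours in this order whose per-array differences from the SUM44 mean overlapped, at 4.77, 4.96 and 4.53 for LRRC15 and 3.86, 4.54 and 4.59 for SPINK4. The SYNPO2L differences, 2.76, 3.21 and 2.68, all lay below them.

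The dim end of the scale can be read from 21 genes restricted to other organs, such as rod-cell or sperm genes. Their probe sets had percentiles of 8.48 to 75.2 in LCCTam (median 44.8) and 6.50 to 73.0 in SUM44 (median 37.4). The SUM44 percentiles of all 3 members fall inside that range, and their LCCTam percentiles lie above it. The files hold no detection calls, so whether SUM44 expressed any of the members is not known from these values. The folds and ranks of the members are therefore those of the array readings, and are not exact ratios of transcript amounts.

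**Figure D2:**
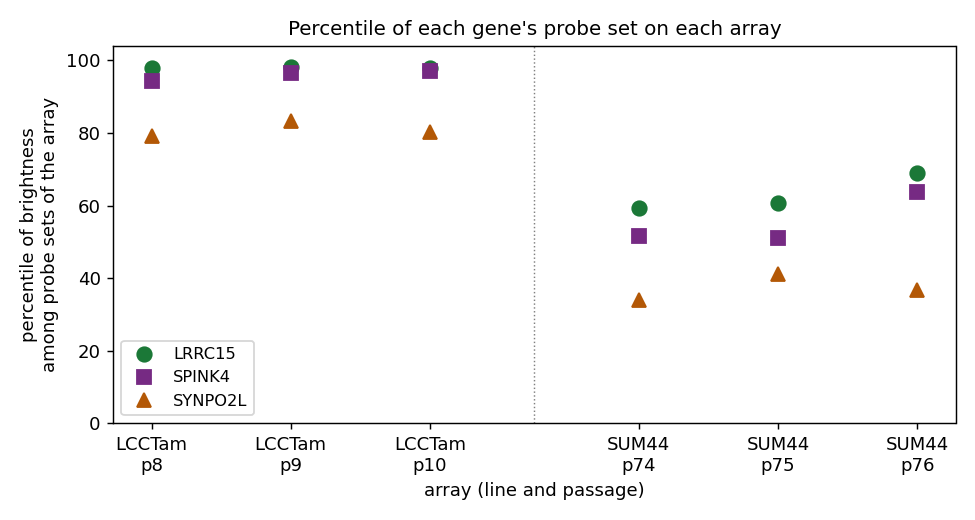
Percentile of each member's probe set among the 22215 probe sets that are not controls, by array, with LCCTam on the left and SUM44 on the right of the dotted line. LRRC15 and SPINK4 are above percentile 94 on every LCCTam array, and SYNPO2L is at 79.1 to 83.3 there and at 34.0 to 41.2 in SUM44.

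Within the lines the members varied more than most genes. The pooled SD within a line was 0.31 for LRRC15, 0.43 for SPINK4 and 0.24 for SYNPO2L, at percentiles 90.5, 97.3 and 79.6 of all genes. LRRC15 and SPINK4 shared a pattern over the SUM44 arrays. Passage 76 was the highest for both, by 0.62 for LRRC15 and 0.78 for SPINK4 above the next SUM44 array. SYNPO2L was highest at passage 75 instead. Of all genes, 130 or 1.09% had passage 76 at least 0.5 above both other SUM44 arrays, and 168 or 1.4% had it at least 0.5 below both. The pattern was counted after it was seen in the members, so these shares are a description and not a test. In LCCTam, LRRC15 and SYNPO2L were highest at passage 9 and lowest at passage 10, where SPINK4 was highest. These spreads were small beside the differences between the lines, and leaving out any 1 array gave 4.63 to 4.97 for LRRC15, 4.19 to 4.60 for SPINK4 and 2.72 to 2.98 for SYNPO2L.

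The genes whose profiles were most like the members' were sought over the 6 arrays, as the root-mean-square distance between profiles after each was centred on its own mean. ADCY1, which encodes a cyclic AMP-producing enzyme, was nearest to LRRC15 at a distance of 0.22 on the log2 scale and nearest to SPINK4 at 0.34. The members LRRC15 and SPINK4 were 0.36 apart. ADCY1 was read at 9.93, 10.51 and 9.88 in LCCTam passages 8 to 10, and at 5.53, 5.37 and 5.66 in SUM44 passages 74 to 76. This ADCY1 profile comes from 1 of 3 probe sets, and the other two differed between the lines by 0.31 and 0.30. LRP4, which encodes a relative of the LDL receptor, came next for both, at 0.57 from LRRC15 and 0.42 from SPINK4. It was read at 8.95, 9.54 and 9.15 in LCCTam, and at 5.40, 5.51 and 5.59 in SUM44. The third was SERPINA1, the alpha-1 antitrypsin gene, for LRRC15 at 0.91, and LAMA4, a laminin chain gene, for SPINK4 at 0.70. SERPINA1 differed from LRRC15 in its order over the SUM44 arrays, where it was read at 8.91, 8.09 and 7.26.

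SYNPO2L lay 0.97 from LRRC15 and 0.82 from SPINK4, and genes outside the members were nearer to it. They were RET, a receptor tyrosine kinase gene, at 0.38, PTP4A1, a phosphatase gene, at 0.40 and FGR, a Src-family kinase gene, at 0.40. RET was read at 10.76, 11.16 and 11.01 in LCCTam, and at 8.92, 8.80 and 8.46 in SUM44. These distances weigh the size of the difference between the lines. The members were chosen for that difference, so other genes with a large rise come near them by choice. When every centred profile was scaled to unit length, ADCY1 was again nearest to LRRC15, at 0.0342, with the next 2 genes close behind at 0.0408 and 0.0416. The other genes found near a member before scaling, such as LRP4 and RET, were then not among the 3 nearest. GATA4, a transcription factor gene, was nearest to SPINK4 and APOA1, an apolipoprotein gene, to SYNPO2L.

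**Figure D3:**
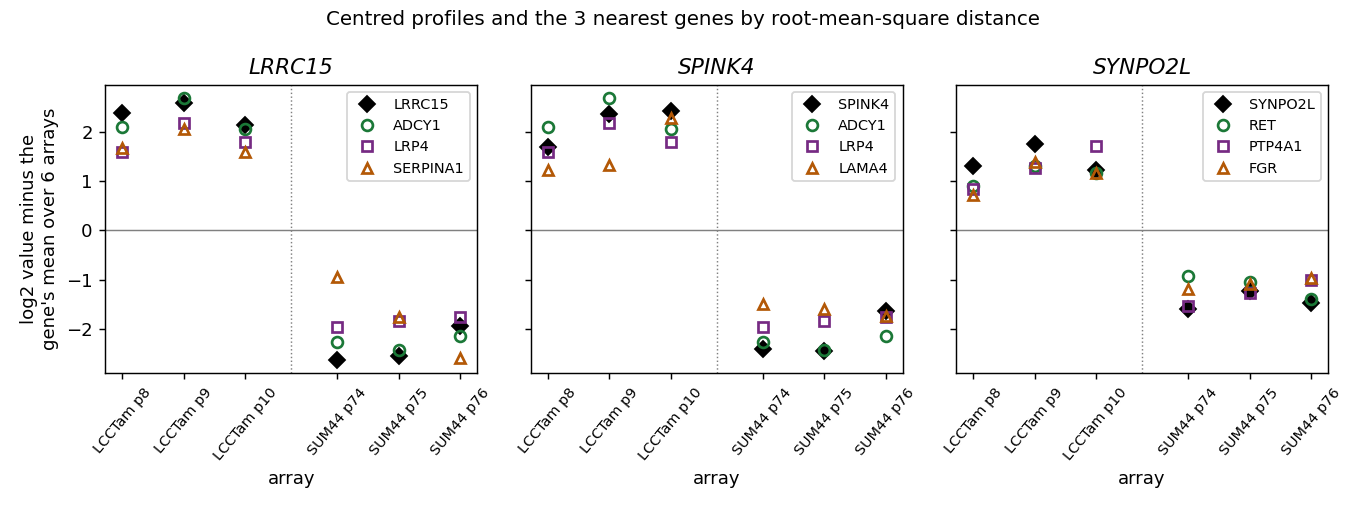
Log2 values minus each gene's mean over the 6 arrays, for each member (black diamonds) and its 3 nearest genes (open symbols), with LCCTam left and SUM44 right of the dotted line. ADCY1 lies closest to LRRC15 and SPINK4, and RET closest to SYNPO2L.

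Of the 30 nearest measured genes on the chromosomes, 10 per member, 3 passed in limma at an adjusted p under 0.05, 1 higher and 2 lower in LCCTam. Over all genes 7.92% passed, 2.09% higher and 5.83% lower. At an unadjusted p under 0.05 the shares of all genes were 8.49% higher and 14.7% lower. BAG1, which encodes a co-chaperone of HSP70 that also binds BCL2, was the neighbour that rose, and it lies next to SPINK4. It spans chr9:33252471-33264708 on the minus strand, so its 3' end faces that of SPINK4 at a distance of 3.9 kb. BAG1 was read at 9.85, 10.27 and 9.99 in LCCTam passages 8, 9 and 10, and at 8.35, 8.06 and 8.34 in SUM44 passages 74, 75 and 76. The lines did not overlap. The means were 10.04 ± 0.21 in LCCTam and 8.25 ± 0.17 in SUM44 (SD, n = 3 each), a difference of 1.79 (SE 0.14, limma adjusted p = 0.00106), or 3.46-fold. Its other probe set rose as well, by 1.60 (limma adjusted p = 0.00161 when all probe sets were fitted). BAG1 passed in all 12 alternatives, with limma adjusted p = 7.06e-05 to 0.00863.

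Of the 10 nearest measured genes around SPINK4, which span 0.921 Mb, BAG1 was the 1 that passed, and the median difference was 0.05. B4GALT1, a galactosyltransferase gene on the other side of SPINK4, was 8.91 ± 0.36 in LCCTam and 8.32 ± 0.31 in SUM44 (SD, n = 3 each), a difference of 0.59 that did not pass (limma adjusted p = 0.162). One of its other 3 probe sets passed, at 0.94 (limma adjusted p = 0.0339 when all probe sets were fitted). The remaining differences were 0.30 and 0.69, and all 4 probe sets read higher in LCCTam without overlap of the lines. B4GALT1 passed with averaged probe sets and with array weights, and missed the threshold in the other alternatives it was tested in. Among the other 451 measured genes of chromosome 9, 2.0% passed higher and 2.88% lower.

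No rise passed the test around LRRC15 in the main fit. Its 10 neighbours span 2.303 Mb, and 0 rose and 2 fell by limma (1 and 3 at an unadjusted p under 0.05), with a median difference of -0.08. CPN2 and GP5, which flank LRRC15 and encode leucine-rich repeat proteins like it, were both dim. CPN2, a subunit of a plasma carboxypeptidase, was 5.05 ± 0.10 in LCCTam and 4.73 ± 0.13 in SUM44 (SD, n = 3 each; difference 0.32, limma adjusted p = 0.11). The lines did not overlap for CPN2, and it passed with array weights and in no other alternative it was tested in. GP5, a platelet glycoprotein gene, was 4.02 ± 0.09 in LCCTam and 4.03 ± 0.05 in SUM44 (SD, n = 3 each; limma adjusted p = 0.931). ATP13A3, a P-type transport ATPase gene, fell by 0.62 (limma adjusted p = 0.0197), and ACAP2, a regulator of the small GTPase ARF6, fell by 0.81 (limma adjusted p = 0.0293). The other ACAP2 probe set differed by -0.006 and the other ATP13A3 probe set by -0.22 (limma adjusted p = 0.972 and 0.239 when all probe sets were fitted). With probe sets averaged, ACAP2 differed by -0.41 and missed the threshold (limma adjusted p = 0.0608), while ATP13A3 differed by -0.42 and passed (0.0202). Both genes missed it without LCCTam replicate 1 (limma adjusted p = 0.0682 and 0.11), LCCTam replicate 2 (0.0547 and 0.0891), SUM44 replicate 2 (0.101 and 0.128) or SUM44 replicate 3 (0.0596 and 0.0766). On chromosome 3, 1.68% of the other 654 genes passed higher and 6.73% lower.

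Around SYNPO2L 0 of the 10 neighbours passed in limma (1 higher and 0 lower at an unadjusted p under 0.05). They span 0.873 Mb, and their differences ran from -0.11 to 0.31 with a median of 0.09. The 0.31 belonged to MYOZ1, 3.4 kb away, which encodes a calcineurin-binding protein of the muscle Z-disc. MYOZ1 was read at 6.62, 6.62 and 6.65 in LCCTam, and at 6.37, 6.31 and 6.28 in SUM44, a small difference in which the lines did not overlap and which did not pass (limma adjusted p = 0.0582). It passed with quantile normalization, median centring, averaged probe sets, array weights and without the _x_at and _s_at probe sets. MYOZ1 has 1 probe set, so the probe set rules left its own values unchanged. With the filter on dim genes, and when any 1 array was left out, MYOZ1 missed the threshold (limma adjusted p up to 0.206). SEC24C, a coat protein gene on the other side, differed by 0.23 (limma adjusted p = 0.346). It passed without LCCTam replicate 3 (limma adjusted p = 0.0298) and with array weights. On chromosome 10, 2.0% of the other 450 genes passed higher and 7.78% lower.

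**Figure D4:**
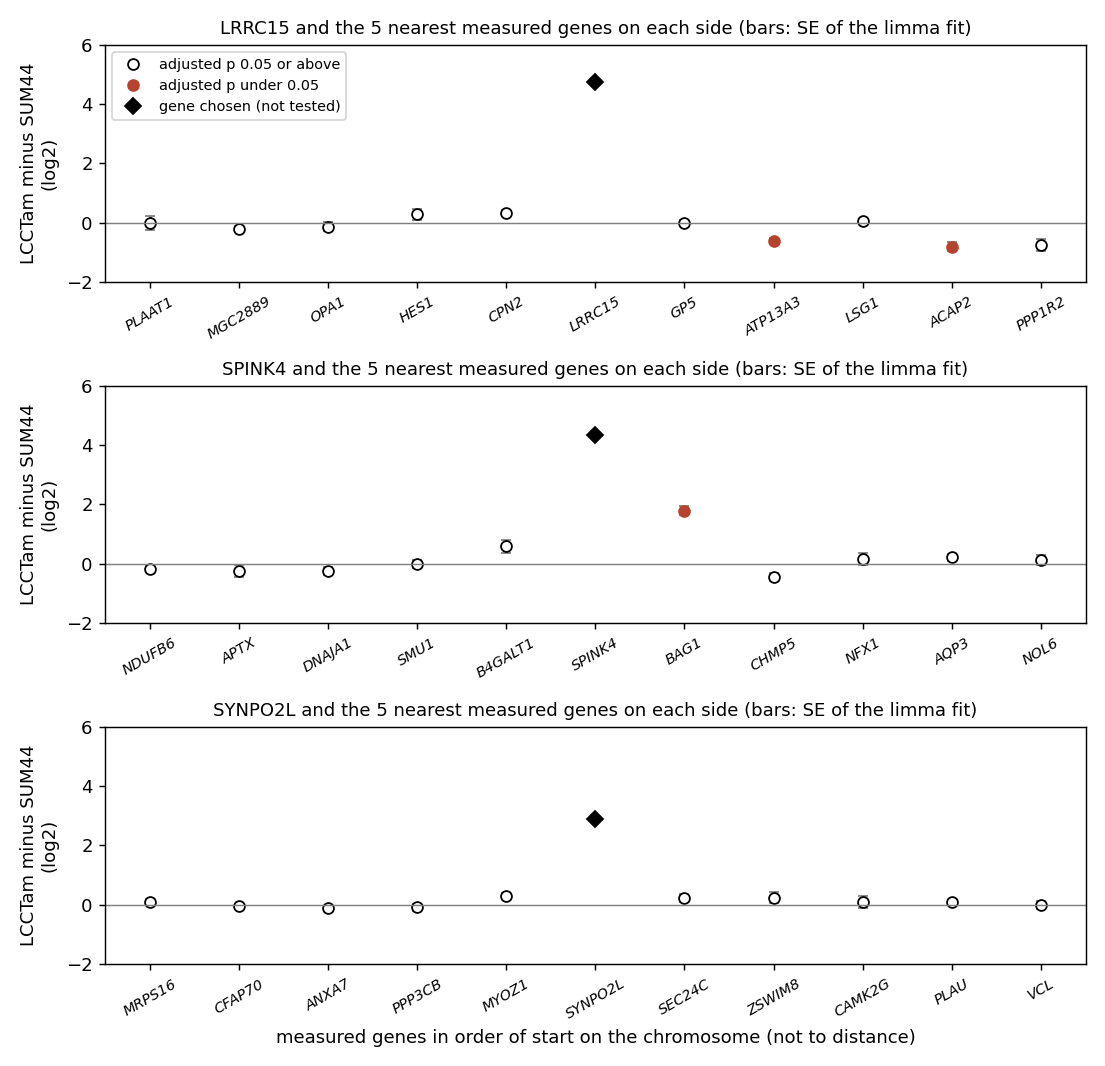
LCCTam minus SUM44 difference (log2) of each member (black diamond, not tested) and of the 5 nearest measured genes on each side, in order of start and not to distance. Bars are the SE of the limma fit, and filled red circles had an adjusted p under 0.05. BAG1, next to SPINK4, is at 1.79, and ATP13A3 and ACAP2, near LRRC15, are at -0.62 and -0.81.

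Relatives of the members were read from lists of their families. Of 36 measured genes for membrane and matrix proteins with leucine-rich repeats, 0 passed in limma (4 higher and 3 lower at an unadjusted p under 0.05), with a median difference of -0.01. The highest absolute difference was LRRN2, a neuronal leucine-rich repeat protein gene, at 8.30 ± 0.12 in LCCTam and 7.55 ± 0.46 in SUM44 (SD, n = 3 each; difference 0.75, limma adjusted p = 0.0872). Of 15 genes of the SPINK family and other Kazal-domain proteins, 0 rose and 1 fell by limma, with 1 and 1 at an unadjusted p under 0.05 and a median of 0.14. That median was 0.0469 without LCCTam replicate 1, 0.0659 without LCCTam replicate 3, and 0.0873 without SUM44 replicate 3. The closest relatives measured, SPINK1 and SPINK2, differed by 0.17 and 0.19 (limma adjusted p = 0.294 and 0.398). The gene that fell was AGRN, the matrix proteoglycan agrin, by 0.63 on the log2 scale (limma adjusted p = 0.0206), and its brightest probe set with neither the _x_at nor the _s_at suffix differed by 0.28 instead. With its probe sets averaged it differed by -0.20 and did not pass (limma adjusted p = 0.148). AGRN also missed the threshold without LCCTam replicate 2 (limma adjusted p = 0.066) or without SUM44 replicate 1, 2 or 3 (0.051, 0.0856 and 0.0644). Without LCCTam replicate 3, 1 gene of that list rose and 1 fell.

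The count of rises among genes for actin-binding proteins of the synaptopodin family and the Z-disc varied with the processing, as over all genes. Of 33 measured, 0 rose and 3 fell (5 and 5 at an unadjusted p under 0.05), and the median difference was 0.04. The counts were 2 higher and 2 lower with quantile normalization, 1 higher and 3 lower with median centring and with averaged probe sets, and 9 higher and 4 lower with array weights. Over all 11963 genes 250 passed higher here and 507 with quantile normalization. Median centring gave 256, averaged probe sets 264 and array weights 1900. NEBL, which encodes the Z-disc protein nebulette, was read at 8.58, 7.98 and 8.16 in LCCTam, and at 9.73, 9.77 and 9.60 in SUM44. It differed by -1.46 (limma adjusted p = 0.0034) and passed in all 12 alternatives, with -0.70 when its probe sets were averaged (0.0105). PDLIM3, an alpha-actinin-binding LIM protein gene, was read at 6.30, 6.50 and 6.50 in LCCTam, and at 8.15, 8.77 and 9.19 in SUM44. The lines did not overlap for either gene. PDLIM3 differed by -2.27 (limma adjusted p = 0.00333), by -1.31 with probe sets averaged (0.00505), and by -0.36 (limma adjusted p = 0.107) in its brightest probe set with neither of those suffixes. PDLIM5, a relative of PDLIM3, fell by 1.13 (limma adjusted p = 0.0292), a call lost without LCCTam replicate 1 or 2 (limma adjusted p = 0.0749 and 0.0662) or SUM44 replicate 2 or 3 (0.128 and 0.0798) and with quantile normalization (0.0523). With probe sets averaged PDLIM5 differed by -0.56 (limma adjusted p = 0.0396). SYNPO, the synaptopodin gene itself, was 7.28 ± 0.04 in LCCTam and 7.43 ± 0.49 in SUM44 (SD, n = 3 each; limma adjusted p = 0.73). Without LCCTam replicate 3, 1 gene of this list rose and 3 fell.

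TGF-beta ligands, receptors, SMADs and induced genes, listed because LRRC15 is known to respond to TGF-beta in fibroblasts, went both ways. Of 29 measured, 1 rose and 3 fell by limma (2 and 7 at an unadjusted p under 0.05), with a median difference of 0.04. The share that passed was 13.8%, against 7.92% of all genes, of which 2.09% were higher and 5.83% lower. At an unadjusted p under 0.05, 8.49% of all genes were higher and 14.7% lower. TGFBR3, the coreceptor betaglycan, was read at 6.81, 7.13 and 7.45 in LCCTam, and at 6.12, 5.84 and 5.31 in SUM44, a difference of 1.37 (limma adjusted p = 0.0176). LTBP3, which binds latent TGF-beta, differed by -1.05 (limma adjusted p = 0.0238), the signal transducer gene SMAD3 by -0.91 (0.0235) and the corepressor gene TGIF1 by -0.74 (0.0304). With probe sets averaged SMAD3 differed by -0.50 (limma adjusted p = 0.0296). Without SUM44 replicate 2 all 4 missed the threshold (limma adjusted p = 0.0784 for TGFBR3, 0.104 for LTBP3, 0.0545 for SMAD3 and 0.109 for TGIF1). Without LCCTam replicate 2 they missed it too (0.066, 0.066, 0.0794 and 0.0506). SMAD3 and TGIF1 were also lost without LCCTam replicate 1 (0.0548 and 0.0904), and LTBP3 and TGIF1 without SUM44 replicate 1 (0.0507 and 0.0748) or 3 (0.0669 and 0.0578). Without LCCTam replicate 3, 2 genes of this list rose and 3 fell.

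Markers of the cell types in which the members are best known passed at shares of 4.17% for fibroblasts, 8.70% for goblet cells and 2.86% for striated muscle, against 7.92% of all genes. Their part in the members' differences was not tested. Of 24 fibroblast markers 0 rose and 1 fell by limma (1 and 4 at an unadjusted p under 0.05), with a median difference of -0.01. The mean level of this list was 5.41 to 5.48 on the LCCTam arrays and 5.64 to 5.69 on the SUM44 arrays. That mean is weighed by single genes, and the differences ran from -4.42 (COL3A1) to 0.67. FAP, a surface protease that marks activated fibroblasts, was 4.43 ± 0.12 in LCCTam and 4.45 ± 0.08 in SUM44 (SD, n = 3 each; limma adjusted p = 0.915). COL3A1, a fibrillar collagen gene, was the marker that fell, with 3.98, 4.32 and 4.36 in LCCTam and 8.23, 8.74 and 8.96 in SUM44 (limma adjusted p = 0.000158). Of its 4 probe sets 3 fell, and the fourth, the one with neither suffix, differed by 0.02. With probe sets averaged it differed by -2.42 (limma adjusted p = 0.00111). Without LCCTam replicate 3 the fibroblast list again had 0 higher and 1 lower.

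Of 23 goblet and intestinal secretory markers 1 rose and 1 fell, with a median of 0.08. The mean level was 6.29 to 6.49 on the LCCTam arrays and 6.28 to 6.34 on the SUM44 arrays. KLF4, a transcription factor gene, was read at 5.82 ± 0.17 in LCCTam and at 7.40 ± 0.48 in SUM44 (SD, n = 3 each), without overlap, a difference of -1.58 that passed in all 11 alternatives it was tested in (limma adjusted p = 0.0103 here). TFF2, a trefoil factor of mucous glands, rose by 1.10 (limma adjusted p = 0.0475) with 6.28, 6.09 and 7.15 in LCCTam, and 5.46, 5.45 and 5.30 in SUM44. TFF2 passed in 3 of 11 alternatives, and with 1 array left out only without LCCTam replicate 3 (limma adjusted p = 0.00797 there, and 0.0528 to 0.156 without each of the others). MUC2, the main goblet cell mucin, differed by 0.19 and CDX2, an intestinal transcription factor, by 0.14 (limma adjusted p = 0.557 and 0.597). TFF3, at 11.27 ± 0.10 in LCCTam and 11.16 ± 0.13 in SUM44, and SPDEF, at 10.73 ± 0.13 and 10.46 ± 0.15 (SD, n = 3 each), were bright in both lines, and both are also known from luminal breast cells. Without LCCTam replicate 3, 2 markers of this list rose and 1 fell.

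Of 35 striated muscle markers 1 rose and 0 fell by limma (4 and 0 at an unadjusted p under 0.05), with a median of 0.13. The mean level was 5.20 to 5.35 on the LCCTam arrays and 5.09 to 5.15 on the SUM44 arrays. The one that rose was CKM, the muscle creatine kinase gene, by 0.42 to 5.57 ± 0.13 in LCCTam, against 5.14 ± 0.05 in SUM44 (SD, n = 3 each; limma adjusted p = 0.0422). That call was lost when any array other than LCCTam replicate 3 was left out (limma adjusted p = 0.0887 to 0.138). With array weights 8 muscle markers rose and 0 fell, while 1900 of all 11963 genes rose and 1944 fell. ACTA1, skeletal muscle actin, differed by 0.01 and the titin gene TTN by -0.01. Luminal markers passed at a share of 16.7%, against 7.92% of all genes (2.09% higher and 5.83% lower). Of 18 luminal markers 0 rose and 3 fell by limma (0 and 7 at an unadjusted p under 0.05), with a median of -0.27. They were ESR1 at -1.65 (limma adjusted p = 0.00124), the trefoil factor gene TFF1 at -1.46 (0.0257) and the mucin gene MUC1 at -1.38 (0.0477). ESR1 passed in all 12 alternatives, with -0.82 when its probe sets were averaged (limma adjusted p = 0.00431). TFF1 was lost without LCCTam replicate 1 or 2 (limma adjusted p = 0.102 and 0.0898) or SUM44 replicate 2 or 3 (0.117 and 0.0639), and MUC1 without any array but SUM44 replicate 3 (0.0762 to 0.177). Without LCCTam replicate 3, 2 luminal markers fell and the median was -0.13. With array weights 3 luminal markers rose, 8 fell and the median was -0.02. In limma 0 of 13 leukocyte and endothelial markers passed (0 at an unadjusted p under 0.05), and 0 of the 21 genes restricted to other organs (1 higher and 0 lower unadjusted). The highest absolute differences in these lists were CD79A, a B-cell receptor component, at 0.27 (limma adjusted p = 0.292) and PDE6G, a rod phosphodiesterase subunit, at 0.56 (0.256).

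**Figure D5:**
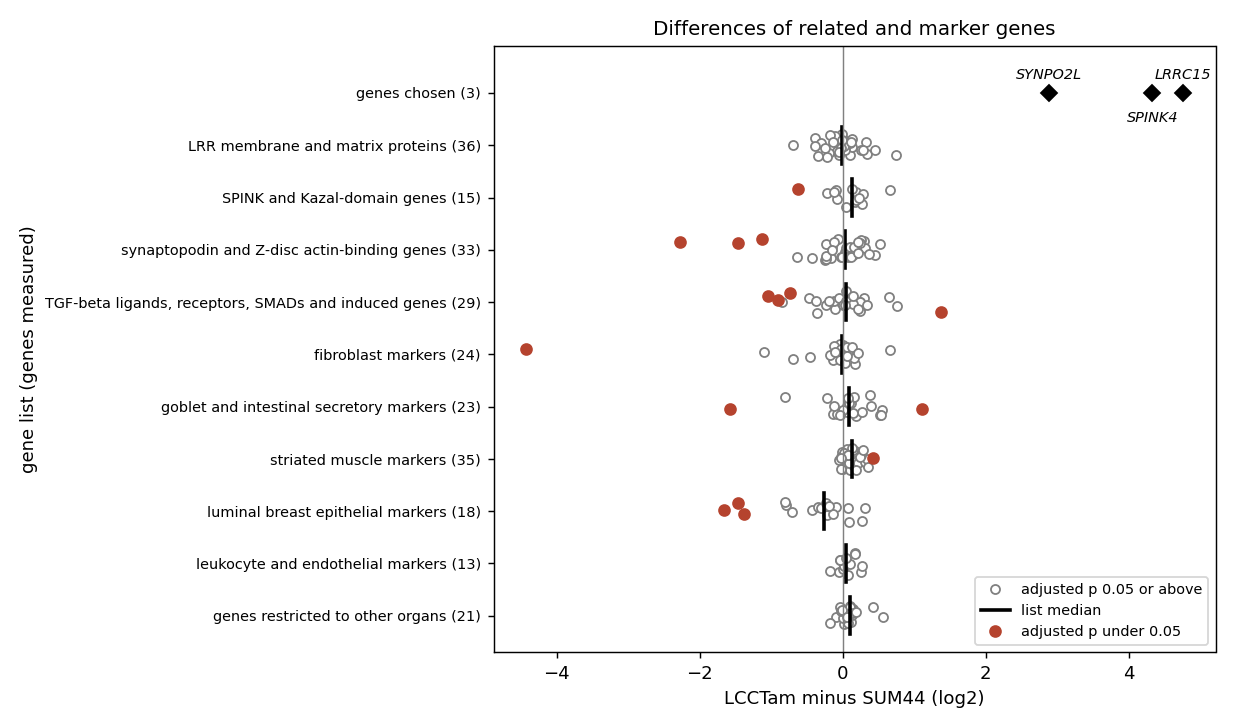
LCCTam minus SUM44 difference (log2) of each gene in the 10 lists, with the number measured in brackets, the list median as a black bar and genes with a limma adjusted p under 0.05 in red. The 3 members (black diamonds) lie at 2.88 to 4.76, and the highest list gene, TGFBR3, is at 1.37.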

How the data were processed

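Total RNA of 3 LCCTam and 3 SUM44 samples was hybridized to 1 Affymetrix array each after one-cycle biotin labelling, per the labels' protocols. The files hold deposited log2 expression per probe set, made by the authors with RMA in Bioconductor, per the design text and the submitters' processing notes. The RMA version and any hybridization batches are not known here, so batch and line cannot be told apart. The number of arrays limits the precision. Of 22283 probe sets, 68 controls were left out, and ranks were taken over the other 22215. The platform annotation gave 19065 of these 1 gene symbol, and 1043 with several symbols were not named. Of the 19065, 19053 were found in RefSeq (GRCh38.p14) and took its symbol, whether or not it differed. The brightest probe set stood for each of 11963 genes.

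Differences are LCCTam minus SUM44. The fit used lmFit and eBayes of limma 3.58.1 (R 4.3.3) with no filter, and p-values adjusted by Benjamini-Hochberg over all genes counted as passing under 0.05. No test of the members is given. The fit was tested on simulated data with independent genes, the same noise on every array and 200 of 11963 genes changed. In the real data 948 genes passed, and array weights ran from 0.20 (LCCTam replicate 3) to 4.02 (LCCTam replicate 1). The recovery rates are therefore those of the simulation and may not hold for these arrays. The fit recovered 32% of changes of 0.5 on the log2 scale, 92% of changes of 1 and 100% of changes of 2 or 4. Of 174 calls there, 12 were false. A small difference that did not pass may therefore have been missed. Alternatives were other scalings, probe set rules, a filter on dim genes, array weights and leaving out each array.

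The members and the 10 gene lists were chosen with earlier results of these data known. Of 273 listed genes, 236 were measured. Genes were named by rule: members, up to 4 passing genes per list (or the gene with the largest difference), 4 epithelial markers (KRT8, KRT18, KRT19 and EPCAM), the nearest and the passing neighbours, and the 3 nearest profiles. CPB1, SPINK1, SPINK2, SYNPO, FAP, MUC2, CDX2, TFF3, SPDEF, ACTA1 and TTN were chosen after their values were seen, as were GATA4 and APOA1, and the motifs were not fixed before the sequences were read.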

Additional observations from a re-analysis of the deposited data

How the results depend on the processing

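The differences of LRRC15, SPINK4 and SYNPO2L moved by less than 1 SD under quantile normalization, median centring and the loss of any 1 array. Among named genes instead of probe sets, percentiles were 75.9 for SYNPO2L in LCCTam, and 55.3 for LRRC15, 47.0 for SPINK4 and 28.9 for SYNPO2L in SUM44. No paired analysis was possible because the lines share no passage number. The limma fit of all genes, 948 passing with 250 higher and 698 lower, gave 507 higher and 594 lower with quantile normalization (54.0% lower, against 73.6%), 3844 (1900 higher, 1944 lower) with array weights, 598 (150 higher, 448 lower) of 8369 without the _x_at and _s_at probe sets, and 1078 lower among all named probe sets. Leaving out 1 array gave 259 (without SUM44 replicate 2) to 1527 (without LCCTam replicate 3), with 68 to 633 higher and 191 to 894 lower. The 10 lists together, 3 higher and 12 lower, gave 6 higher with quantile normalization, 5 with median centring, 34 higher and 30 lower with array weights, 5 lower without those probe sets, and 0 higher (7 at an unadjusted p under 0.05) of 71 brighter genes, whose median was -0.13. With 1 array left out they gave 0 (without LCCTam replicate 2 or SUM44 replicate 2) to 7 (without LCCTam replicate 3) higher and 5 to 11 lower (14 and 25 higher unadjusted where 0 passed). The neighbours, 1 higher and 2 lower, gave 2 higher with quantile normalization, with median centring and without those probe sets, 3 with averaged probe sets, 9 higher and 5 lower with array weights, and 1 lower among brighter genes. With 1 array left out they gave 1 to 2 higher and 0 to 2 lower (3 to 4 lower unadjusted where 0 passed), with a median of -0.0572 to 0.093. AGRN and COL3A1 changed sign, to 0.28 and 0.0202, without the _x_at and _s_at probe sets, where other probe sets stand for them. Of 205 results of the 18 named genes with a test, 147 passed again, 56 kept their direction without passing, and the remaining 2 are these. The causes were not tested.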
